A study of Mus musculus with 18 samples.

Results

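The genes that encode subunits of the mitochondrial oxidative phosphorylation system were followed through the differentiation of mouse embryonic stem cells (mESCs) with wildtype or K19R EED. Members were taken by name from both count tables: mt-Nd, mt-Co, mt-Cytb and mt-Atp genes, Nduf genes of the subunit families a, b, c, s and v, the Sdh genes, Uqcr genes, Cox4 to Cox8 genes and Atp5 genes, without names that hold -ps. The rule found 101 members among 54429 gene names, 13 of them in mitochondrial DNA and 88 in nuclear chromosomes. Complex I accounted for 7 mitochondrial and 38 nuclear members, complex II for 4 nuclear ones, complex III for 1 and 8, complex IV for 3 and 21, and complex V for 2 and 17. Ndufa4 and Ndufa4l2 were counted with complex IV. The nuclear members Cox6c2, Ndufa11b, Ndufb4c and Ndufs6b met the rule by name but are annotated as processed pseudogenes.

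The series, by its title, concerns acetylation of EED, a core subunit of Polycomb repressive complex 2, by the acetyltransferases CBP and P300. Knock-in cells carried FLAG-tagged EED with the K19R substitution (K19R), in which an arginine stands where a lysine could be acetylated, or a FLAG-tagged EED with the unchanged sequence (FLAG-WT). Both lines carry the FLAG tag. Each was sampled at day 0 as mESCs in LIF at 1000 U/ml with the MEK inhibitor PD0325901 at 1 uM and the GSK3 inhibitor CHIR99021 at 3 uM (the pair called 2i), and as embryoid bodies, suspended aggregates that differentiate without these factors, at days 2, 6 and 10. Wildtype mESCs were grown in LIF alone and stand in a count table of their own. Each of the 9 groups had 2 libraries. The number of clones behind each line and the relation of the wildtype mESCs to the knock-in lines were not given in the sources used here, and counts per gene cannot show the substitution itself.

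Oxidative phosphorylation passes electrons from NADH (complex I) or succinate (complex II) through ubiquinone, complex III and cytochrome c to oxygen at complex IV, and the proton gradient built on the way drives ATP synthesis by complex V. Mitochondrial DNA encodes a few hydrophobic core subunits, which are transcribed as long polycistronic RNAs that are then cut into single messages. All other subunits are imported from the cytosol, so each complex except complex II needs matched products of both genomes. Pluripotent stem cells are known for a largely glycolytic metabolism, and respiration is known to increase in many lineages that arise from them.

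The FLAG-EED libraries held 20158077 to 28917558 counts and the wildtype libraries 14190166 and 37375083. Pluripotency and endoderm markers agreed in kind with the labels. The summed level of 9 pluripotency markers was 495 to 6696 CPM (counts relative to the library total, adjusted by edgeR's TMM factors), lowest in FLAG-WT at day 10 and highest in K19R mESCs. The summed level of 12 endoderm markers was 22400 and 22840 CPM in K19R embryoid bodies at day 10, against 32620 and 32800 CPM in FLAG-WT. At day 6 it was 8969 and 8642 CPM in K19R, against 23040 and 23740 CPM in FLAG-WT, and at day 2 it was 393 and 322 CPM in K19R, against 3890 and 3959 CPM in FLAG-WT. At day 0 it was 52.3 and 55.3 CPM in K19R and 31.7 and 135 CPM in FLAG-WT, where the second library stood apart with 55.0 CPM of Afp. Endoderm markers were called lower in K19R in 7 of 12 genes at day 0, with 1 higher, and in 11 of 12 at days 2 and 6. Of 11 cardiac and muscle markers tested, 7 were higher and 2 lower in K19R at day 6, and 6 and 3 at day 10. Of 7 neural markers tested, 5 were higher and 0 lower at day 6, and 5 and 2 at day 10. Their sums at day 10 were lower in K19R than in FLAG-WT, at 30.9 and 29.9 against 62.6 and 87.8 CPM, and 91.2 and 80.1 against 181 and 159 CPM. Summed pluripotency markers overlapped between the genotypes at days 0 and 2 and were higher in both K19R libraries than in both FLAG-WT libraries at days 6 and 10. The part of these marker differences in the genotype results below was not tested. These were bulk samples, in which fewer cells of a type and less RNA per cell cannot be told apart. Whether the 2 libraries of a group stem from separate cultures is not stated, so p-values reflect only the spread of these libraries, possibly a technical one.

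Of the 101 members, 96 passed the filter on low counts (all 13 mitochondrial and 83 nuclear ones) and were tested. The other 5 were nuclear members that reached at most 13 counts in any library. The tissue-restricted ones were Cox8c (0 to 13), Cox6a2 (0 to 3, the heart and muscle form of COX6A) and Cox8b (0 to 2, the heart and muscle form of COX8). Cox6c2 (1 to 8) and Ndufa11b (0 to 2) are annotated pseudogenes. Each test below is edgeR's two-sided quasi-likelihood test, a member is called at an adjusted p under 0.05 over all genes (Benjamini-Hochberg), and changes are log2 fold changes ± SE with K19R over FLAG-WT or the later day over day 0. With 2 libraries a group, an exact permutation test of a single gene could not go below p = 0.333.

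The mitochondrial members were not all equally well measured, because mouse chromosome 1 carries a near-identical insertion of mitochondrial DNA. Between positions 24611535 and 24616197 of chromosome 1 (GRCm38, minus strand), 7 annotated genes aligned with 7 mitochondrial members over 4149 bases with only 7 differences, 6 of them in mt-Co1 and 1 in mt-Nd3. The first 60 bases of mt-Co2, the gene for subunit 2 of complex IV, and of its copy Gm28661 are shown because they are the same in both places, and the 681 bases aligned between the genes held no difference. The stretch of mt-Co1 from base 1054 to 1113 and the start of its copy Gm29216 are shown because they hold all 6 differences of that pair, in capitals. The sequences are from the GENCODE transcripts of GRCm38.
mt-Co2: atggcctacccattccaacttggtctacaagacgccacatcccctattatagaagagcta
Gm28661: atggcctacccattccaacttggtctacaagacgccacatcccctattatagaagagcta
mt-Co1: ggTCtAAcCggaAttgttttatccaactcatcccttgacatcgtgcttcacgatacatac
Gm29216: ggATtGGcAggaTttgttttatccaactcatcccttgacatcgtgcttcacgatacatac

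The share of a member's 31-base words that also stood in another annotated gene was 100% for mt-Co2, 99.9% for mt-Co3, 99.5% for mt-Atp6, 98.9% for mt-Nd4l, 98.1% for mt-Nd3, 63.9% for mt-Co1 and 62.8% for mt-Nd4. It was 0% for mt-Nd1, 6.6% for mt-Cytb, 7.4% for mt-Nd6, 7.5% for mt-Atp8, 13.5% for mt-Nd2 and 16.8% for mt-Nd5. Sequence outside annotated genes was not searched, so these shares are lower bounds. mt-Atp8 is grouped below with the uncertain members for its 5 to 22 counts in each FLAG-EED library. The counting command in the file headers set no option to count reads that map to several places. The 6 members mt-Co2, mt-Co3, mt-Atp6, mt-Atp8, mt-Nd3 and mt-Nd4l had 1 to 507 counts in each FLAG-EED library and 0 to 14 in the wildtype libraries, whereas mt-Co1 had 169698 to 599651 counts in the FLAG-EED libraries. The values of those 6 are uncertain, and the text rests on mt-Nd1, mt-Nd2, mt-Nd5, mt-Nd6 and mt-Cytb. With them stand mt-Co1 and mt-Nd4, each with a part that is unique. How reads from the shared parts were counted was not tested. Counting used no strand option, so mt-Nd6, the only member on the other strand of mitochondrial DNA, could not be told apart from antisense RNA there. Among nuclear members, 15 shared more than 20% of their words with other genes. More than 10% of the exonic bases overlapped another gene in Atp5o (43.8%), Ndufb6 (39.0%), Ndufa13 (30.0%), Uqcrc2 (19.7%), Ndufb9 (19.5%) and Cox5a (12.8%) among others.

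The division of counts between the 2 genomes shifted during differentiation. The 13 mitochondrial members held 1.18% and 1.53% of the counts in K19R and 1.43% and 1.37% in FLAG-WT at day 0. At day 6 they held 1.83% and 1.52% in K19R, below the 2.40% and 2.15% in FLAG-WT, and at day 10 1.89% and 1.82% in K19R, which overlapped the 1.92% and 1.82% in FLAG-WT. This rise was one of mt-Co1. Without it, the mitochondrial members averaged 0.65% of the counts at day 0, 0.25% at day 6 and 0.21% at day 10 in FLAG-WT. In K19R these means were 0.59%, 0.26% and 0.56%. The 88 nuclear members held a smaller share at days 6 and 10 than at day 0. They held 1.17% and 1.13% in K19R and 1.18% and 1.18% in FLAG-WT at day 0, and 0.948% and 0.964% in K19R against 0.870% and 0.867% in FLAG-WT at day 6. At day 10 they held 0.860% and 0.852% in K19R against 0.696% and 0.708% in FLAG-WT, so that at days 6 and 10 both K19R libraries lay above both FLAG-WT libraries.

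**Figure D1:**
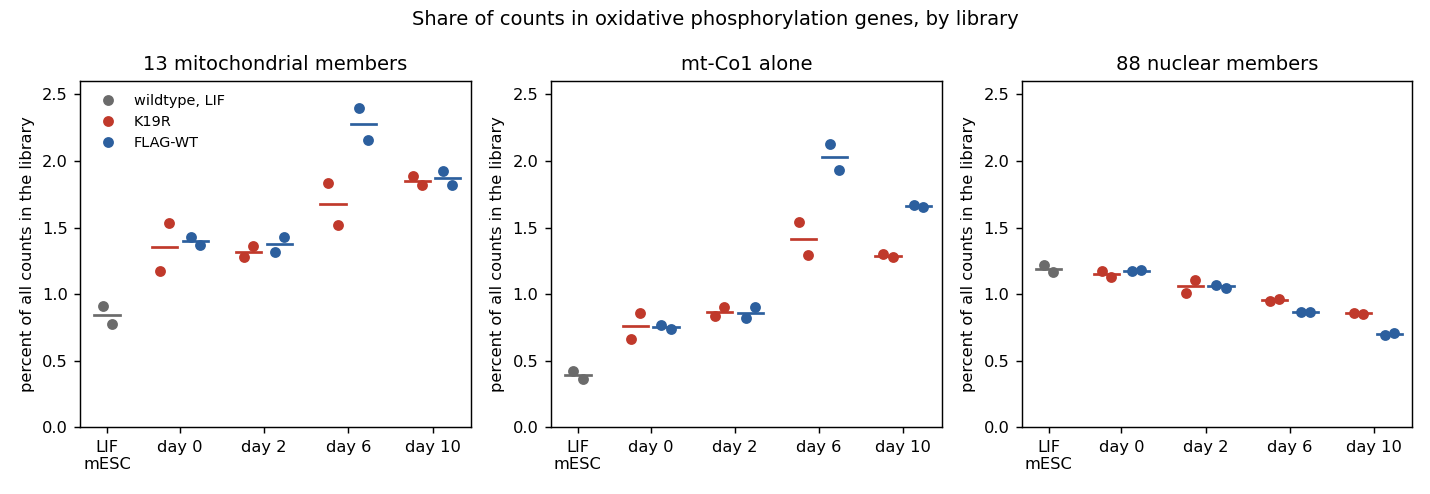
Percent of all counts of each library taken by the 13 mitochondrial members, by mt-Co1 alone and by the 88 nuclear members, by day, with K19R (red) left of FLAG-WT (blue) and wildtype mESCs in LIF (grey) at the left edge; points are libraries and bars group means. The mitochondrial share is highest in FLAG-WT at day 6 (2.40% and 2.15%), and the nuclear share is lowest in FLAG-WT at day 10 (0.696% and 0.708%).

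Most counts of mitochondrial members fell on mt-Co1, the catalytic subunit of complex IV. The 6 members of uncertain count each held at most 507 counts in any FLAG-EED library. The shares and ratios given here therefore describe the counted reads and not the make-up of mitochondrial RNA. At day 0 mt-Co1 was 56.3% of the counts of mitochondrial members in both K19R libraries and 53.9% in both FLAG-WT libraries. By day 10 it was 69.0% and 70.3% in K19R, against 87.0% and 90.7% in FLAG-WT. The ratio of counts in mitochondrial to nuclear members was 2.19 and 2.13 in K19R at day 10 and 2.76 and 2.57 in FLAG-WT. Per kilobase of exon, mt-Co1 averaged 13150 CPM in FLAG-WT embryoid bodies at day 10 and 4511 CPM at day 0, where the next members were mt-Nd1 (1966 CPM per kilobase), mt-Cytb (1229), mt-Nd2 (777), mt-Nd5 (570) and Atp5b (544), the catalytic beta subunit of ATP synthase and the highest of the nuclear members. The median of the 88 nuclear members was 47.5 CPM per kilobase in FLAG-WT at day 0. All exonic bases were the divisor, also for mt-Co1 with its 1545 bases, though reads from its shared part may be missing.

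In FLAG-WT embryoid bodies the mitochondrial genes mt-Cytb of complex III and mt-Co1 of complex IV moved in opposite directions. mt-Cytb, the cytochrome b that carries both quinone sites of complex III, had 1425 and 1386 CPM at day 0, 1073 and 1206 CPM at day 2, 111 and 98.6 CPM at day 6, and 134 and 86.8 CPM at day 10. The values at days 6 and 10 lay far below those of every earlier library, a log2 change of -3.74 ± 0.17 at day 6 (adjusted p = 8.59e-17) and -3.67 ± 0.17 at day 10 (adjusted p = 1.02e-16). mt-Co1 had 7113 and 6827 CPM at day 0, 7440 and 8291 CPM at day 2, 25750 and 23090 CPM at day 6, and 20090 and 20550 CPM at day 10. It rose by 1.81 ± 0.10 at day 6 (adjusted p = 3.87e-15) and by 1.54 ± 0.10 at day 10 (adjusted p = 8.69e-14). Complex I genes of the mitochondrial genome fell, with mt-Nd1, a membrane-arm subunit near the quinone site, at -1.17 ± 0.12 and mt-Nd2, a proton-pumping subunit, at -1.29 ± 0.16 at day 10. In all, 1 of 13 mitochondrial members was called higher and 9 lower in FLAG-WT at day 10, where 77.9% of all genes tested were called. Their median log2 change was -0.74, against -0.39 for the 83 nuclear members and -0.12 for all genes. The difference of the first 2 medians, -0.35, rested on single libraries: it was -0.84 without the first FLAG-WT library of day 10 and 0.0251 without the second. At day 6, 1 was higher and 9 lower (76.1% of all genes called, medians -0.57 for mitochondrial members, -0.07 for nuclear members and -0.05 for all genes), and at day 2 none was higher and 3 were lower (56.1% called). Without the second FLAG-WT library of day 10, the count of mitochondrial members called lower at day 10 was 5.

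K19R embryoid bodies passed through a similar low mt-Cytb level at day 6 but had most of the mESC level at day 10. Their mt-Cytb was 1087 and 1453 CPM at day 0, 740 and 802 CPM at day 2, 179 and 127 CPM at day 6, and 1100 and 840 CPM at day 10. The change from day 0 was -3.05 ± 0.16 at day 6 (adjusted p = 5.04e-15) and -0.39 ± 0.15 at day 10 (adjusted p = 0.0236), the last lost without the second K19R library of day 0 (-0.17) or of day 10, or with DESeq2. mt-Co1 had 6260 and 8085 CPM at day 0, 14210 and 12330 CPM at day 6 and 12720 and 12830 CPM at day 10, and rose by 0.89 ± 0.10 at day 6 and 0.83 ± 0.10 at day 10. At day 10 the complex I genes mt-Nd4 (0.37 ± 0.11), mt-Nd5 (0.39 ± 0.15) and mt-Nd6 (0.52 ± 0.18) were called higher than at day 0 and mt-Nd1 lower (-0.36 ± 0.12), and each of these calls was lost when 1 K19R library of day 0 was left out. Of 13 mitochondrial members, none was higher and 7 lower at day 2 (56.4% of all genes called), 1 higher and 7 lower at day 6 (72.3% called), and 4 higher and 2 lower at day 10 (73.9% called). The counts at days 2 and 10 rested on single libraries of day 0: without the first K19R library they were 0 higher and 10 lower at day 2 and 1 and 3 at day 10, and without the second 1 and 1 at day 2 and 7 and 0 at day 10.

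**Figure D2:**
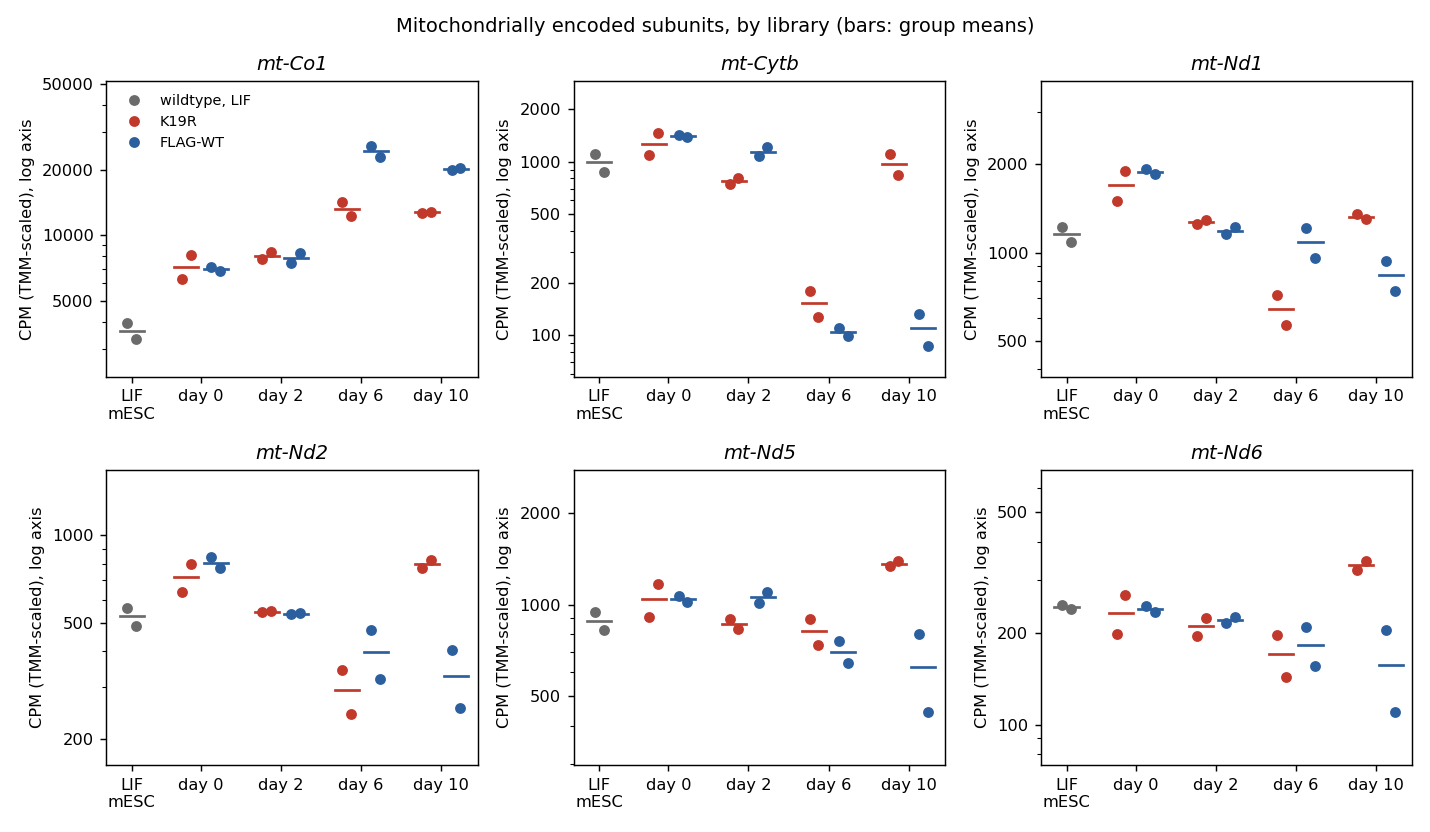
CPM (TMM-scaled, log axis) of mt-Co1, mt-Cytb, mt-Nd1, mt-Nd2, mt-Nd5 and mt-Nd6 by day. K19R (red) stands left of FLAG-WT (blue), with wildtype mESCs in LIF (grey) at the left edge. Points are libraries and bars group means. mt-Cytb is at 1100 and 840 CPM in K19R at day 10 against 134 and 86.8 CPM in FLAG-WT, whereas mt-Co1 is lower in K19R (12720 and 12830 CPM) than in FLAG-WT (20090 and 20550 CPM).

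The direct comparison of K19R with FLAG-WT embryoid bodies at day 10 gave the largest difference of any member tested that day. mt-Cytb was 8.8 times higher in K19R, a log2 change of 3.14 ± 0.17 (adjusted p = 2.59e-14) that was called under all 10 alternative settings, between 2.87 and 3.48. The complex I genes were higher in K19R as well. mt-Nd2 was at 773 and 825 CPM in K19R against 404 and 255 CPM in FLAG-WT (1.28 ± 0.16, adjusted p = 2.29e-07). mt-Nd5, another proton-pumping subunit, was at 1341 and 1386 CPM in K19R against 799 and 444 CPM in FLAG-WT (1.13 ± 0.16, adjusted p = 7.54e-07). mt-Nd6 was at 323 and 346 CPM in K19R against 205 and 110 CPM in FLAG-WT (1.09 ± 0.18). The 2 K19R libraries lay close together in these 3 genes, and the 2 FLAG-WT libraries lay farther apart, without overlap between the genotypes. mt-Nd1 (0.66 ± 0.12) and mt-Nd4 (0.63 ± 0.11) were higher too. mt-Co1 was lower in K19R by -0.67 ± 0.10 (adjusted p = 1.46e-06). In all, 9 of 13 mitochondrial members were called higher in K19R and 1 lower, where 58.4% of all genes were called, 33.2% higher and 25.2% lower. 3 of those 9 (mt-Co2, mt-Nd4l and mt-Atp6) are among the members of uncertain count. The median log2 change of the mitochondrial members was 0.78, against 0.06 for nuclear members and 0.13 for all genes, and the difference between the first 2 medians, 0.72, was 1.21 without the first FLAG-WT library of day 10 and 0.43 without the second. The summed level of the mitochondrial ribosomal RNA genes was lower in K19R, as for mt-Co1 and unlike mt-Cytb. It was 338 and 354 CPM in K19R, against 764 and 1016 CPM in FLAG-WT. These genes averaged only 0.0349% of all counts in K19R and 0.0726% in FLAG-WT. Whether so few counts follow the level of ribosomal RNA was not tested. The comparisons of FLAG-WT day 10 with day 0 and of K19R with FLAG-WT at day 10 share the FLAG-WT libraries of day 10.

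The earlier days differed from day 10 in which members were called and in which direction. At day 0 no mitochondrial member was called, where 10.5% of all genes were called, and their median log2 change was 0.00. With edgeR 0 of them had an unadjusted p under 0.05, and DESeq2 called 0. At day 2, mt-Cytb was at 740 and 802 CPM in K19R against 1073 and 1206 CPM in FLAG-WT, a change of -0.56 ± 0.15 (adjusted p = 0.0038) that DESeq2 did not call (adjusted p = 0.0678). At day 6, mt-Cytb was at 179 and 127 CPM in K19R against 111 and 98.6 CPM in FLAG-WT (0.54 ± 0.16, adjusted p = 0.00463), and the call was lost without the first K19R library (0.28) or the second FLAG-WT library (0.46). mt-Co1 (-0.88 ± 0.10, adjusted p = 1.47e-08), mt-Nd1 (-0.76 ± 0.12) and mt-Nd4 (-0.71 ± 0.11) were lower in K19R at day 6, and mt-Nd2 was lower, at -0.44 ± 0.16, a call lost in 4 of 10 alternatives. In all, 2 of 13 mitochondrial members were called higher and 4 lower in K19R at day 6, where 58.5% of all genes were called, and none higher and 3 lower at day 2, where 41.8% were called. At day 2 mt-Atp6 and mt-Co3, of uncertain count, were the other members called lower beside mt-Cytb. mt-Nd3 was the second member called higher at day 6 and is of uncertain count. The change of the genotype difference since day 0 was itself tested. For mt-Cytb it was 3.28 ± 0.22 at day 10 (adjusted p = 8.64e-12), and for mt-Co1 -0.92 ± 0.14 at day 6 (adjusted p = 3.62e-06) and -0.71 ± 0.14 at day 10 (adjusted p = 0.000115).

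Nuclear genes that maintain mitochondrial DNA and RNA were read beside these values, and no link between them was tested. Lrpprc, which with Slirp stabilises mitochondrial messenger RNAs, was at 98.3 and 106 CPM in K19R at day 10, against 47.8 and 43.4 CPM in FLAG-WT (1.17 ± 0.07, adjusted p = 2.97e-13). Pnpt1, the mitochondrial polynucleotide phosphorylase, was at 63.5 and 77.2 CPM in K19R against 35.6 and 30.8 CPM in FLAG-WT (1.08 ± 0.09, adjusted p = 8.54e-11). Neither overlapped between the genotypes. Of 11 genes of mitochondrial RNA stability and processing, 5 were called higher and 2 lower at day 10, with Fastkd2 (0.86 ± 0.10) among the higher ones. Of all genes, 58.4% were called, 33.2% higher and 25.2% lower, and library totals alone moved their median log2 change by 0.30. Of 14 genes of mitochondrial DNA transcription and replication, 7 were called higher and 3 lower, led by Ssbp1, the single-strand binding protein (0.99 ± 0.10), Polg2, the accessory subunit of the polymerase (-0.93 ± 0.13), and Tefm, the transcription elongation factor (0.89 ± 0.14). Tfam, which packages mitochondrial DNA, was at 50.6 and 55.4 CPM in K19R and 55.2 and 47.8 CPM in FLAG-WT and was not called. In FLAG-WT at day 10 against day 0, 8 of the 11 RNA genes were lower and 1 higher, with Pnpt1 at -2.06 ± 0.09 and Lrpprc at -1.67 ± 0.07, and 10 of the 14 DNA genes were lower and 4 higher, where 77.9% of all genes were called. In K19R at day 10, 8 of 11 and 8 of 14 were lower than at day 0, where 73.9% of all genes were called.

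Nuclear members were called lower more often than higher at each later day in both lines, though the share called lower was close to that of all genes in FLAG-WT at day 6 (39.8% against 39.1%). At day 10, 17 of 83 tested nuclear members were called higher and 51 lower in FLAG-WT, against 37% and 40.9% of all genes, with a median log2 change of -0.39, and 17 were higher and 40 lower in K19R, against 38.1% and 35.8% of all genes, with a median of -0.17 against 0.01 for all genes. By complex, FLAG-WT at day 10 had 8 higher and 20 lower of 37 in complex I, 1 and 3 of 4 in complex II, 3 and 4 of 8 in complex III, 3 and 10 of 17 in complex IV and 2 and 14 of 17 in complex V. The split was already present at day 2, with 6 higher and 44 lower in FLAG-WT (28.5% and 27.6% of all genes, median -0.23) and 14 and 33 in K19R (28.5% and 27.9% of all genes, median -0.11). At day 6 it was 26 and 33 in FLAG-WT (37% and 39.1% of all genes) and 13 and 42 in K19R (37.1% and 35.2%). These counts depend on how libraries are scaled, because the TMM factors of FLAG-WT at days 6 and 10 were 0.80 to 0.84 and those of all other FLAG-EED groups 1.00 to 1.10. With library totals alone, the median of all genes moved by -0.38 at day 6 and -0.40 at day 10 in FLAG-WT, and the split of nuclear members became 10 higher and 52 lower at day 6 and 7 and 66 at day 10.

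Subunits of complexes V, IV and I fell over time. Atp5g1, 1 of the 3 genes for the identical c-ring subunit of ATP synthase (chromosome 11, 96068852 to 96075670), had 360 and 364 CPM at day 0, 172 and 175 CPM at day 2, 91.6 and 93.9 CPM at day 6, and 64.8 and 70.5 CPM at day 10 in FLAG-WT, lower at each later day. In K19R it had 323 and 330 CPM at day 0, 194 and 217 CPM at day 2, 109 and 108 CPM at day 6, and 114 and 113 CPM at day 10. Its change at day 10 was -2.42 ± 0.07 in FLAG-WT (adjusted p = 3.34e-21) and -1.52 ± 0.07 in K19R (adjusted p = 4.25e-17). Atp5j2, which encodes subunit f of ATP synthase, fell by 1.40 ± 0.09 in FLAG-WT, and Atp5k, which encodes subunit e, changed by -1.16 ± 0.12. Ndufc1 of complex I fell by 1.36 ± 0.14 in FLAG-WT. Cox5a, a nuclear subunit of complex IV that binds next to the catalytic core, fell within 2 days, with changes of -1.25 ± 0.08 in FLAG-WT and -1.30 ± 0.08 in K19R, and remained at -1.14 ± 0.08 and -1.40 ± 0.08 at day 10. Cox6b1, which lies on the intermembrane face of complex IV, fell by 1.01 ± 0.08 in FLAG-WT at day 2 and was at 0.07 at day 10, not called. The catalytic Atp5b changed by -0.69 ± 0.07 in FLAG-WT and -0.78 ± 0.07 in K19R at day 10, and Sdha, the flavoprotein of complex II, by -0.88 ± 0.07 in FLAG-WT.

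A smaller set rose. Atp5s, a coupling factor gene with low counts (44 to 252 in each FLAG-EED library), had 2.27 and 1.90 CPM at day 0 and 11.5 and 9.15 CPM at day 10 in FLAG-WT, and 1.70 and 2.05 CPM at day 0 and 6.30 and 7.55 CPM at day 10 in K19R. It rose by 2.31 ± 0.19 in FLAG-WT (adjusted p = 1.37e-11) and 1.89 ± 0.20 in K19R (adjusted p = 2.03e-09). Atp5d, the delta subunit of the central stalk of ATP synthase, rose by 1.17 ± 0.07 at day 6 and 0.92 ± 0.07 at day 10 in FLAG-WT. Cox7a2l, known as a supercomplex assembly factor that joins complexes III and IV, rose by 1.23 ± 0.08 at day 6 and 1.29 ± 0.08 at day 10 in FLAG-WT and by 0.77 ± 0.08 at day 10 in K19R. Cox6a1, the common form of a regulatory subunit of complex IV, rose by 1.09 ± 0.08 at day 6 and 0.79 ± 0.08 at day 10 in FLAG-WT. Core subunits of complex I differed among themselves: in FLAG-WT at day 10, Ndufs3 and Ndufs8 were at -0.07 and -0.11, neither called, whereas Ndufs1, which takes electrons from the flavin site, was lower, at -0.84 ± 0.07. Among members of very low count, Cox4i2, Cox7b2 and the annotated pseudogene Ndufs6b were also called lower in FLAG-WT at day 10. Cox4i2 had 13 and 18 counts at day 0 and 1 and 1 at day 10. Ndufs6b had 10 and 5 at day 0 and 1 and 0 at day 10, and Cox7b2 11 and 16 at day 0 and 4 and 0 at day 10.

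**Figure D3:**
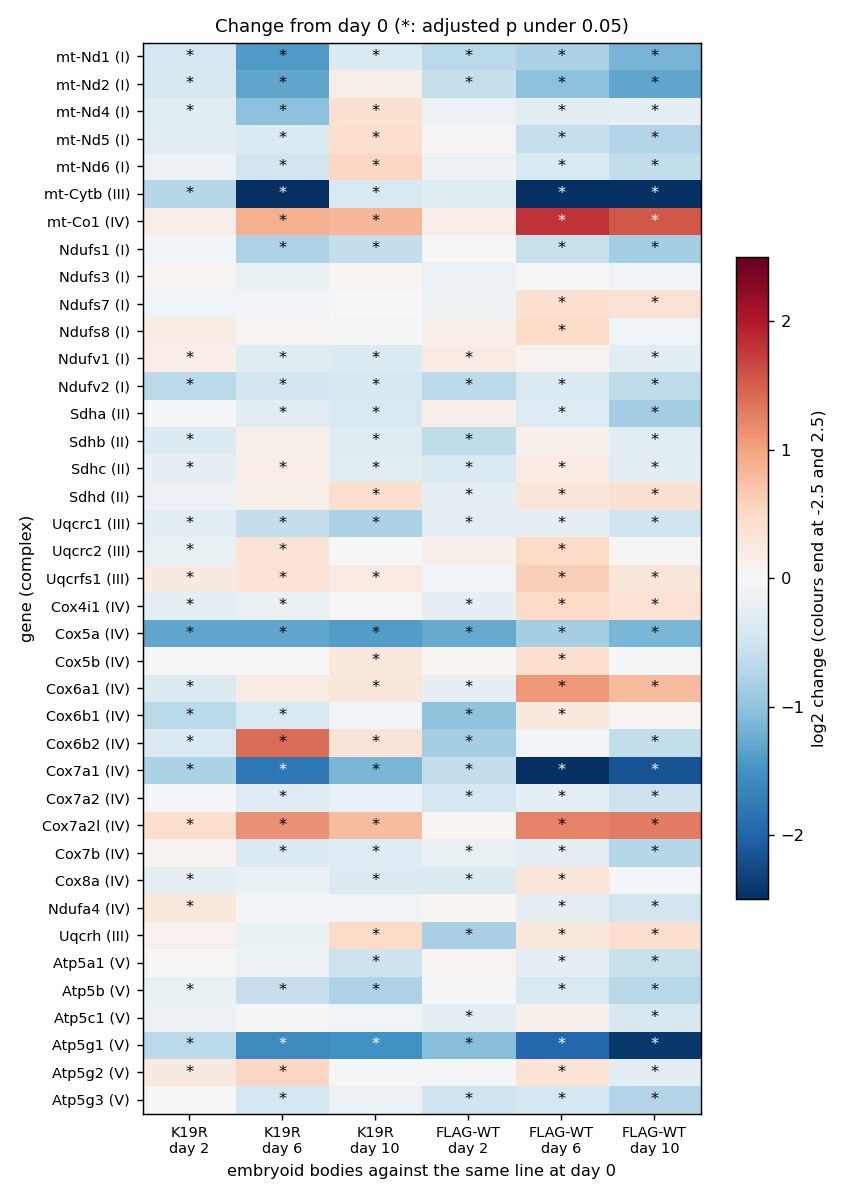
Log2 change from day 0 (colour) of 7 mitochondrial members and of core and isoform nuclear members (rows, with their complex) at days 2, 6 and 10 in K19R (left) and FLAG-WT (right); an asterisk marks an adjusted p under 0.05. mt-Cytb is dark blue in K19R at day 6 alone and in FLAG-WT at days 6 and 10, mt-Co1 is red from day 6 on in both lines, and Cox5a is blue in all 6 columns.

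At day 0 the nuclear members of K19R and FLAG-WT mESCs differed little, with 3 of 83 called higher and 6 lower, against 5.51% and 4.98% of all genes, and a median log2 change of -0.08. Apart from Ndufa4l2, a hypoxia-inducible relative of Ndufa4 with 40 and 30 counts in K19R against 2 and 4 in FLAG-WT, no member was called with a log2 change beyond 0.34 in size. Leaving out 1 library of day 0 left 1 to 5 members called. At day 2, 19 were higher and 7 lower in K19R, against 20% and 21.8% of all genes, with a median of 0.05. Uqcrh, the acidic hinge protein of complex III, was at 57.1 and 72.3 CPM in K19R, against 37.5 and 37.3 CPM in FLAG-WT (0.79 ± 0.09, adjusted p = 9.29e-08). Its genotype difference grew by 0.90 ± 0.13 from day 0 to day 2 (adjusted p = 5.54e-06). Atp5j2 (0.47 ± 0.08) and Atp5d (0.42 ± 0.07) were higher, and Atp5s was lower (-0.59 ± 0.17). The balance of calls at day 2 rested on single libraries. It was 24 higher and 4 lower without the first K19R library, 5 and 9 without the second, and 9 and 5 or 9 and 4 without the first or second FLAG-WT library.

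At day 6 nuclear members were mostly lower in K19R embryoid bodies. Of 83 tested, 43 were called lower and 5 higher, or 51.8% lower against 30.1% of all genes (28.4% of all genes were higher), with a median log2 change of -0.21 against 0.02 for all genes. The lower calls numbered 19 of 37 in complex I, 1 of 4 in complex II, 7 of 8 in complex III, 9 of 17 in complex IV and 7 of 17 in complex V. With library totals alone the median of all genes moved by 0.36 and the split of nuclear members became 29 higher and 11 lower, so that direction depends on the scaling. Several members were lower under every alternative. Cox6a1 was at 220 and 250 CPM in K19R against 463 and 433 CPM in FLAG-WT (-0.93 ± 0.08, adjusted p = 1.93e-10). Uqcrq, a small subunit that contacts cytochrome b in complex III, was at 120 and 124 CPM in K19R against 219 and 214 CPM in FLAG-WT (-0.83 ± 0.07, adjusted p = 9.13e-11). Both were lower in each K19R library than in each FLAG-WT library. Ndufa3 (-0.77 ± 0.13), Ndufa6 (-0.64 ± 0.07), Cox5b (-0.62 ± 0.07) and Cox4i1 (-0.57 ± 0.07), subunits of complexes I and IV, were also lower under every alternative. Of the complex I core, Ndufs3, Ndufs8, Ndufv1 and Ndufv2 were at -0.32, -0.40, -0.37 and -0.30, called with TMM but not with library totals, where Ndufs3 and Ndufv2 were at 0.04 and 0.06. Sdha, Sdhb, Atp5a1 and Atp5b were not called, at -0.04, -0.12, 0.15 and -0.10. The endoderm markers were lower in K19R at this day in 11 of 12 genes.

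At day 10 the nuclear members no longer leaned one way: 18 were called higher and 13 lower in K19R, 37.3% of those tested against 58.4% of all genes. With library totals alone 63 were higher and 4 lower, with the median of all genes moved by 0.30, and with relative log expression factors 14 and 16. Atp5g1 was at 114 and 113 CPM in K19R against 64.8 and 70.5 CPM in FLAG-WT (0.75 ± 0.07, adjusted p = 9.14e-10), and its genotype difference had grown by 0.90 ± 0.09 since day 0 (adjusted p = 2.14e-08). Atp5j2 was at 76.2 and 74.9 CPM in K19R against 44.1 and 37.4 CPM in FLAG-WT (0.89 ± 0.09, adjusted p = 3.84e-09). Neither gene overlapped between the genotypes. Ndufc1 of complex I (0.61 ± 0.14) and Sdha (0.41 ± 0.07) were higher as well. Ndufa6 was lower (-0.61 ± 0.07), as were Cox7a2l, at 80.9 and 84.2 CPM in K19R against 123 and 134 CPM in FLAG-WT (-0.64 ± 0.08, adjusted p = 5.77e-08), and Cox6a1 (-0.53 ± 0.08). Each of these kept its call in all 11 alternatives. Of the cores, Atp5b was at 0.00, Ndufs3 at -0.05, Uqcrc2 at -0.04 and Cox5a at -0.02, none of them called. At this day 4 of 12 endoderm markers were lower and 2 higher in K19R, and 7 of 9 pluripotency markers were higher and 2 lower.

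**Figure D4:**
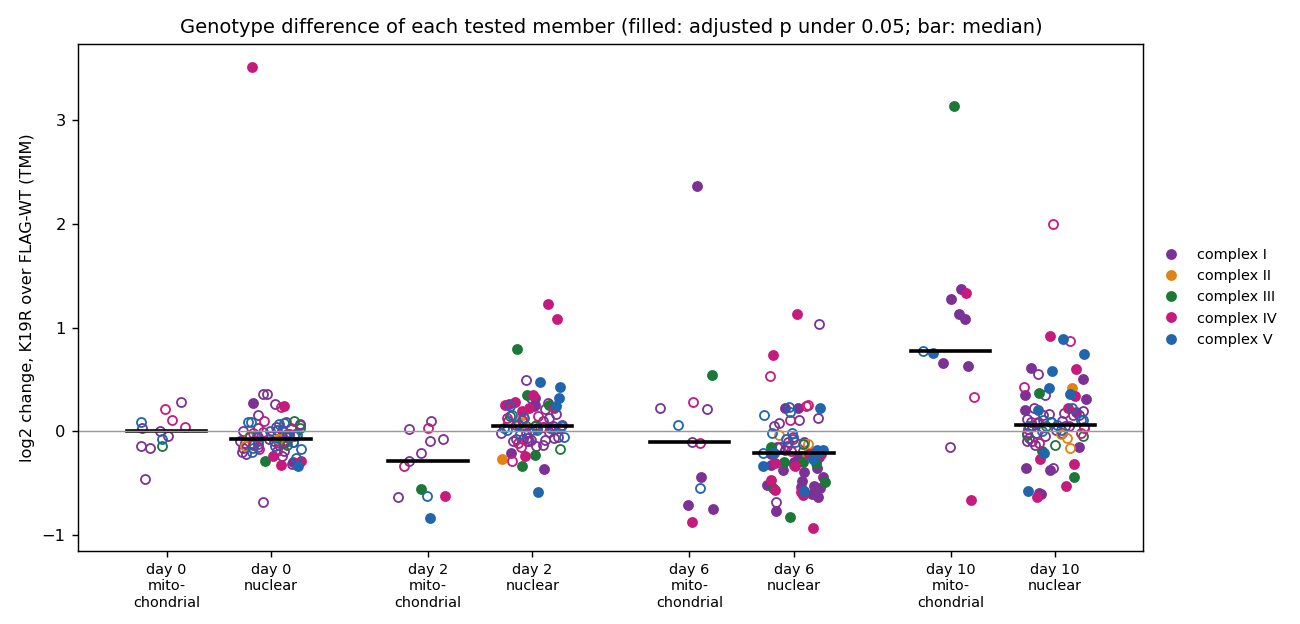
Log2 change of K19R over FLAG-WT for each tested member by day, mitochondrial (left of each pair) and nuclear (right), coloured by complex; filled points have an adjusted p under 0.05 and bars are medians. The mitochondrial median is 0.78 at day 10 with mt-Cytb at 3.14 on top, and the nuclear median is -0.21 at day 6.

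Alternative isoforms of single subunits did not move together. Cox6b2, the testis form of COX6B (chromosome 7, 4751792 to 4753094), was at 43.9 and 48.3 CPM in K19R at day 6, against 22.2 and 19.7 CPM in FLAG-WT (1.13 ± 0.10, adjusted p = 3.29e-10), whereas Cox6b1, the common form, was at 64.8 and 69.6 CPM in K19R against 101 and 101 CPM in FLAG-WT (-0.59 ± 0.08). The 2 isoforms thus differed in opposite directions between the same libraries, each without overlap. The genotype difference of Cox6b2 had grown by 1.46 ± 0.15 since day 0 (adjusted p = 6.71e-09). At day 10 Cox6b2 was still higher in K19R (0.60 ± 0.11, adjusted p = 4.03e-05). Cox7a1, the heart and muscle form of COX7A (chromosome 7, 30184144 to 30186078), fell in both lines, with changes of -2.16 ± 0.23 in FLAG-WT and -1.15 ± 0.20 in K19R at day 10, and its 2.55 and 3.99 CPM in K19R at day 10 lay above the 1.46 and 1.98 CPM in FLAG-WT (0.92 ± 0.26, adjusted p = 0.00336), a call lost without the second K19R library (0.57) or the first FLAG-WT library. Cox7a2, the liver form, was at 0.22 ± 0.09 between the genotypes at day 10, a call lost in 5 of 11 alternatives, and Cox7a2l was lower in K19R. Of the 3 c-ring genes, whose mature proteins are identical, Atp5g1 and Atp5g3 (0.42 ± 0.08) were higher in K19R at day 10 and Atp5g2 was at 0.01, not called. Over time in FLAG-WT, Atp5g1 changed by -2.42, Atp5g3 by -0.74 ± 0.08 and Atp5g2 by -0.26 ± 0.07. Per kilobase of exon, Atp5g1 was at 23.2 and 23.0 CPM in K19R at day 10, Atp5g3 at 56.4 and 64.6 CPM and Atp5g2 at 73.0 and 73.0 CPM. That order depends on the divisor, all annotated exonic bases: 4912 for Atp5g1, 2181 for Atp5g3 and 1675 for Atp5g2. Before division their means were closer, at 113.5, 132 and 122.2 CPM. In FLAG-WT at day 0 the undivided means were 361.7, 164.5 and 145 CPM, with Atp5g1 highest. Atp5g2 shared 40.2% of its 31-base words with other genes. Cox4i2, the oxygen-regulated form of COX4, had at most 97 counts in any library, and Cox4i1 up to 15745.

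**Figure D5:**
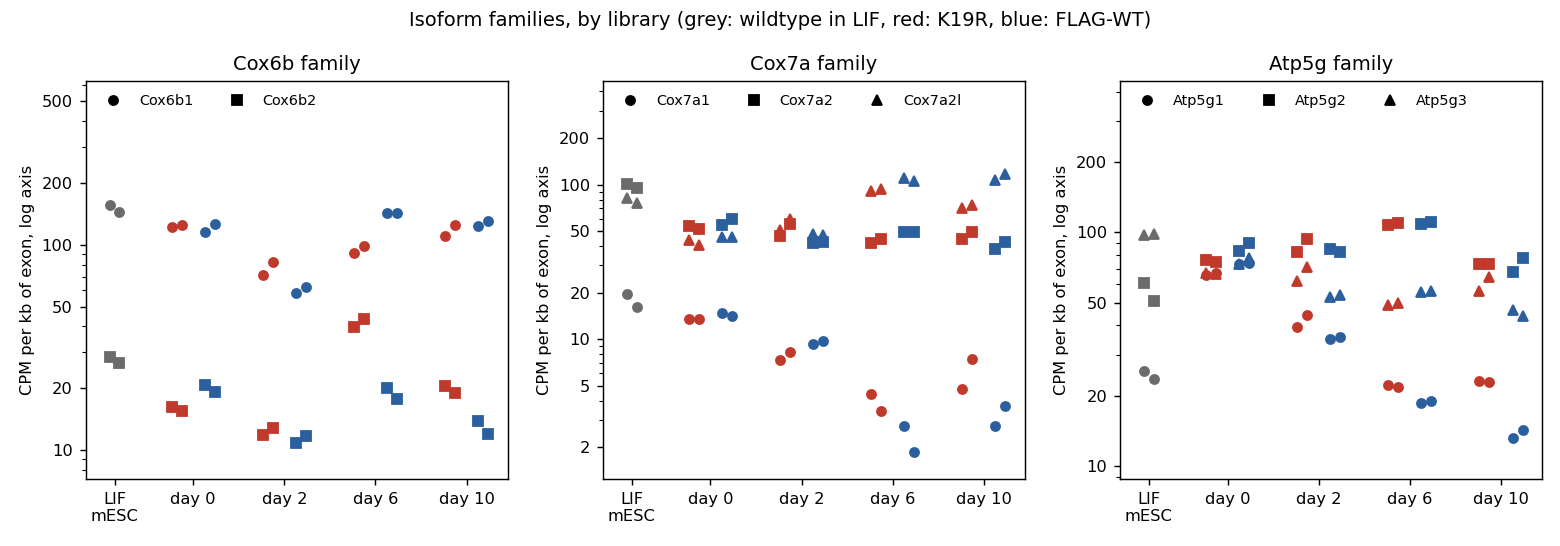
CPM per kilobase of exon (log axis) of the isoforms of COX6B, COX7A and the c-ring subunit by day, with K19R (red) left of FLAG-WT (blue) and wildtype mESCs in LIF (grey) at the left edge; each point is a library and its shape the gene. Cox6b2 is highest in K19R at day 6, Cox7a1 falls in both lines, and Atp5g1 separates from Atp5g2 and Atp5g3 after day 0.

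Promoter windows of 4 nuclear members that moved are shown because they hold or lack the same motifs while their genes went different ways. Windows run from 250 bases before to 50 bases after the start in RefSeq's annotation of GRCm38.p6, and 68 of the 88 nuclear members had one. The motifs searched on both strands were GCGC, AT and GCGC joined for NRF1 and CCGGAAG for ETS factors such as GABPA, both known for respiratory genes, and AAGATGG for YY1, and capitals mark them. Atp5k (chr5:108434350-108434649, minus strand) and Cox6a1 (chr5:115348909-115349208, minus strand) each held 1 NRF1 and 1 ETS match. Atp5g1 (chr11:96075582-96075881, minus strand) and Cox7a2l (chr17:83514284-83514583, minus strand) held none of the 3.
Atp5k: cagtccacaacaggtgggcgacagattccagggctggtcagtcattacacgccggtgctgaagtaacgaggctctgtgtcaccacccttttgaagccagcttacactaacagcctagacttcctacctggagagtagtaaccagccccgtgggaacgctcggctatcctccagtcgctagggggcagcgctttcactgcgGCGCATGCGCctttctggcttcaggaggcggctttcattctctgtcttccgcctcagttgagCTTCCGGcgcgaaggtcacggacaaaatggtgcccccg
Cox6a1: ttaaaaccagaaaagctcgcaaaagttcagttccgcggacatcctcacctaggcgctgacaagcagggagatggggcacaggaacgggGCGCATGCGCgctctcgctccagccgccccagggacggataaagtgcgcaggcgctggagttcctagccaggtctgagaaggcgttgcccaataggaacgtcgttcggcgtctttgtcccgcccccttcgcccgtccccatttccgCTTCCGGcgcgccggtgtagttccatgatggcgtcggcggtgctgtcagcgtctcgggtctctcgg
Atp5g1: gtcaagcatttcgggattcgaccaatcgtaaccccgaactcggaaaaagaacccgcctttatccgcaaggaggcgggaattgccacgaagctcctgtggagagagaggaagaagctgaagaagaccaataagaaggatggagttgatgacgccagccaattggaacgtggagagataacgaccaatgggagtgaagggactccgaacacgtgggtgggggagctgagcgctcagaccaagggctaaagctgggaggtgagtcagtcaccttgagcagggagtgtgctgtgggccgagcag
Cox7a2l: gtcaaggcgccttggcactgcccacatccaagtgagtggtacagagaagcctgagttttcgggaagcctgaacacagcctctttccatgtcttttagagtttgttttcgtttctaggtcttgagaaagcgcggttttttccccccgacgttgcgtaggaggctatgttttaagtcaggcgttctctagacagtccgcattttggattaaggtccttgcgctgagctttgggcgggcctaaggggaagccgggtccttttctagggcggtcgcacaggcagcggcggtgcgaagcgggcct

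In FLAG-WT at day 10, Atp5k was at -1.16 and Cox6a1 was at 0.79 with the same pair of motifs, and Atp5g1 was at -2.42 and Cox7a2l was at 1.29 with none. These genes were picked for their different directions, so the contrast says nothing of the motifs. Of 5 members with an NRF1 match, 1 was called higher and 4 lower in this comparison. The split was 3 and 7 of 16 for ETS and 2 and 8 of 11 for YY1. It was 17 and 51 of all 83 nuclear members tested, against 37% and 40.9% of all genes. Over the 73 windows of members, 6.8% held the NRF1 motif, 21.9% the ETS motif and 15.1% the YY1 motif, against 0.97%, 8.86% and 6.34% of all 32851 windows. At day 6, 10 of the 16 members with an ETS match were called lower in K19R and none higher, beside 51.8% lower among all nuclear members tested and 30.1% among all genes, and this lean of the nuclear members turned with library totals alone. At day 10, 2 were lower and 3 higher. A match is only these letters, and says nothing of binding.

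Genes that serve the system but were not members were counted the same way. For comparison, of all genes tested between K19R and FLAG-WT, 20% were called higher and 21.8% lower at day 2. These shares were 28.4% and 30.1% for day 6, with 33.2% and 25.2% for day 10. Of 77 mitochondrial ribosomal protein genes, 33 were called higher and 2 lower in K19R at day 2. The split was 19 and 20 at day 6, then 32 and 15 at day 10. In FLAG-WT at day 10, 55 were lower and 11 higher than at day 0, against 40.9% and 37% of all genes. Of 14 complex I assembly factors, 9 were higher and 3 lower in K19R at day 10, with Ndufaf2 (0.90 ± 0.15), Nubpl (0.72 ± 0.14) and Ndufaf4 (0.68 ± 0.12) leading. Of 17 complex IV assembly factors, 6 were higher and 7 lower, with Cox20 (-1.66 ± 0.58) and the copper chaperone Cox17 among the lower ones. Of 16 genes of electron carriers and coenzyme Q synthesis, 8 were higher and 1 lower, led by Coq8a (1.83 ± 0.27) and Pdss1 (1.41 ± 0.19). Of 14 citrate cycle genes, 7 were lower and 2 higher at day 10, and 11 and 2 at day 6. Of 17 glycolysis genes, 9 were already higher and none lower in K19R at day 0, against 5.51% and 4.98% of all genes. At day 2, 14 were higher and 2 lower, with a median log2 change of 0.82. The split was 7 and 5 at day 6 and 10 and 5 at day 10. With library totals alone, the citrate cycle split became 4 higher and 1 lower at day 6 and 7 and 3 at day 10, and that of mitochondrial ribosomal proteins 52 against 7 at day 6, then 56 against 3 at day 10. The coactivator Ppargc1a, known to drive mitochondrial biogenesis, was listed at 0 in both FLAG-WT libraries of day 0 and was at 0.758 and 0.848 CPM in K19R and 0.783 and 1.18 CPM in FLAG-WT at day 10.

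A shift in the genotype difference relative to day 0 was called for 23 of 96 members at day 2 (27.1% of all genes called), 36 at day 6 (44.5%) and 40 at day 10 (45%). At day 6 it was positive for 6 members and negative for 30, against 22.1% and 22.4% of all genes. Library totals alone moved the median of all genes for this day 6 shift by 0.38. At day 10 the shift was positive for 8 of 13 mitochondrial and 21 of 83 nuclear members and negative for 1 and 10. With library totals alone, 59 nuclear members were positive and none negative, and with relative log expression factors 13 and 11. The count at day 2 was 11 without the first FLAG-WT library of day 0, the first FLAG-WT library of day 2 or the second K19R library of day 2, 12 and 13 without the second FLAG-WT library of day 0 or of day 2, and 15 without the second K19R library of day 0.

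Wildtype mESCs in LIF had the lowest mitochondrial share of all groups, 0.914% and 0.778%, against 1.43% and 1.37% in FLAG-WT mESCs in LIF and 2i, with a nuclear share of 1.22% and 1.17% against 1.18% and 1.18%. Culture, line, FLAG tag and count table differ together here and cannot be told apart. The chromosome 1 copies together held 253 and 504 counts in the wildtype libraries, against 2173 and 2057 in FLAG-WT mESCs. Whether reads of copied genes were counted alike in both tables was not tested. The median log2 change of mitochondrial minus that of nuclear members was -1.04, and -0.66 without the 7 copied genes. mt-Co1 was at 3924 and 3340 CPM in wildtype cells against 7113 and 6827 CPM in FLAG-WT (-0.96 ± 0.10, adjusted p = 1.81e-09). mt-Nd1 (-0.72 ± 0.11), mt-Nd2 (-0.63 ± 0.16) and mt-Cytb (-0.52 ± 0.15) were lower as well, the last not with DESeq2. None of 13 mitochondrial members was higher and 11 were lower, where 64.9% of all genes were called, but 6 of these have the uncertain counts named above. Nuclear members were mixed, 34 higher and 19 lower, with a median of 0.09 against 0.00 for all genes. Ndufa4l2 had 382 and 887 counts in wildtype cells against 2 and 4 in FLAG-WT (7.51 ± 0.31, adjusted p = 8.89e-18). Atp5g1 was at 126 and 117 CPM in wildtype cells against 360 and 364 CPM in FLAG-WT (-1.60 ± 0.07, adjusted p = 1.23e-17), Ndufb2 of complex I at 11.4 and 10.0 CPM against 2.19 and 3.16 CPM (1.97 ± 0.20), and Uqcr10 of complex III at 75.2 and 65.6 CPM against 150 and 155 CPM (-1.14 ± 0.07). Cox7a2 (0.76 ± 0.08) and Cox7a2l (0.75 ± 0.08) were higher and Cox6a1 (-0.82 ± 0.08) was lower. Of 17 glycolysis genes, 16 were higher and 1 lower in the wildtype cells.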

How the data were processed

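RNA was sequenced in 18 libraries. Per the file headers, the authors counted read pairs over GENCODE exons of GRCm38 with featureCounts, version 1.6.3 for the FLAG-EED table and 1.6.4 for the wildtype table, and deposited raw counts with no strand option. The submitters' processing notes also name STAR and Trim Galore. Counts were fitted with edgeR 4.0.16 in R 4.3.3 (filterByExpr, minimum count 10, TMM, quasi-likelihood F-test), with 1 fit over the 16 FLAG-EED libraries, which kept 19092 genes, and 1 over all 18 for the wildtype comparison, which kept 19296. The script was tested on simulated data. Members and lists were chosen with earlier results of these data known. The text names all mitochondrial members, core and isoform members (1 is not reported here), the 6 called nuclear members with the largest change per comparison, and up to 3 called genes of each other list. Same-numbered libraries did not deviate together: 28 correlations lay between -0.03 and 0.05. Alternatives were other scalings, no filter, DESeq2 1.42.0, a replicate block, the compared groups alone and leaving out each library.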

Additional observations from a re-analysis of the deposited data

Results flagged for a closer look

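Differences between K19R and FLAG-WT that changed since day 0, by a test of the change itself (edgeR, adjusted p under 0.05), covered 23 members at day 2, 36 at day 6 and 40 at day 10. These were 24%, 37.5% and 41.7% of the members tested, below the 27.1%, 44.5% and 45% of all genes. All these comparisons share the libraries of day 0. At day 2 the log2 change of the genotype difference was 0.90 for Uqcrh, -2.43 for Ndufa4l2, 1.01 for Ndufs5, 0.63 for Uqcr11, 0.54 for Cox7c and 0.53 for Ndufa3. At day 6 it was 0.69 for mt-Cytb, -0.92 for mt-Co1, 1.46 for Cox6b2, -0.91 for Cox6a1, -3.27 for Ndufa4l2, 0.82 for Cox7a1, -0.80 for Uqcrq and -0.66 for Cox4i1. At day 10 it was 3.28 for mt-Cytb, -0.71 for mt-Co1, 1.44 for mt-Nd2, 0.90 for Atp5g1, 1.01 for Cox7a1, 0.94 for Cox6b2, 1.04 for Ndufs5, 0.92 for Atp5k and 0.82 for Atp5j2. Ndufa4l2 rests on at most 50 counts in a FLAG-EED library. The left-out name Ndufb1-ps held 4927 counts over the 16 FLAG-EED libraries.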

How the results depend on the processing

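Of 201 named gene results under 2255 alternatives, 2043 kept direction and call, 196 lost the call and 16 reversed, all 16 with library totals alone, where the cause was not tested. For K19R over FLAG-WT at day 6 these were Ndufs3 (0.0355), Ndufv2 (0.061), Uqcrc1 (0.0638), Uqcrc2 (0.20), Uqcrfs1 (0.0495), Cox5a (0.14), Cox7a2l (0.13), Cox7b (0.0175), Atp5c1 (0.17), Atp5g3 (0.18) and Sdhd (0.14), at day 10 Uqcrc1 (0.11) and Cox4i1 (0.031), and for FLAG-WT day 10 over day 0 Cox4i1 (-0.0497), Ndufs7 (-0.0501) and Sdhd (-0.0225). Members called between the genotypes at day 0 numbered 9, but 5 with DESeq2 and 21 with the compared groups alone. With library totals alone they numbered 78 at day 10 and 69 for the change of the genotype difference at day 10. The median of mitochondrial minus that of nuclear members was -0.23 at day 2 between genotypes without the 7 copied genes, 0.0197 without them and 0.18 without mt-Co1 in FLAG-WT day 2 over day 0, and, for wildtype cells in LIF, -0.93 with the compared groups alone, -0.66 without the copied genes and -2.02 without mt-Co1. Leaving out 1 library gave 1 to 5 members called between genotypes at day 0, 16 to 29 at day 2, 34 to 47 in K19R day 2 over day 0 and 11 to 30 for the change of the difference at day 2. The same medians then ranged from -0.51 to -0.15 at day 2 and 0.43 to 1.21 at day 10 between genotypes, 0.19 to 0.29 at day 2 and -0.84 to 0.0251 at day 10 in FLAG-WT, -0.61 to 0.0091 for the change of the difference at day 2, and -1.16 to -0.96 for wildtype cells. The replicate block, with numbers that pair no libraries, called 54 members at day 6 and 41 at day 10 between genotypes and moved no count by over 1.5 times. Low counts limit Ndufa4l2, Cox4i2, Ndufs6b, Cox7b2, Ndufb4c and the 6 short mitochondrial members.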
